A study of Arabidopsis thaliana with 12 samples.

Results

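The genotype by tissue interaction asks, gene by gene, whether the change from wild type to the myb36-1 mutant differs between sorted endodermis and whole root. It was measured in Arabidopsis thaliana with all 12 of 12 libraries of the study and over all 33602 loci of its count table, of which 20302 passed the filter on low counts and were tested. The 4 groups of 3 biological replicates were wild-type Col-0 endodermis, myb36-1 endodermis, wild-type Col-0 whole root and myb36-1 whole root, the mutant being in the Col-0 background, and all seedlings were 6 days past exposure to light. Whole roots were frozen directly, whereas endodermal cells were released from the root as protoplasts, sorted by fluorescence and then frozen, and the RNA kit differed between sorted cells and whole roots. Tissue therefore cannot be told apart from protoplasting, sorting and RNA kit. Within a tissue mutant and wild type went through the same steps, but whether these acted alike on both genotypes was not tested. The labels name neither the marker used for sorting nor the site of the myb36-1 lesion.

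The endodermis is the cell layer that encloses the vascular tissue of the root. Its cells first deposit the Casparian strip, a ring of lignin held in place by CASP membrane proteins, and later coat themselves with suberin, a polyester of fatty acids and phenolics. MYB36 is a transcription factor known for switching on the Casparian strip genes as these cells leave the meristem. A positive interaction means that the mutant effect was more positive in endodermis than in whole root, whether through a larger rise, a smaller fall or a turn of direction. Values are log2 differences of differences with their standard errors, and levels are CPM, counts scaled to library size with factors from the trimmed mean of M values (TMM), which compare libraries for the same gene and not genes with each other. In bulk RNA, fewer cells of a type and less RNA per cell cannot be told apart.

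The opening stretches of 4 genes that carry the main patterns are shown because these genes moved in contrasting ways: AT1G14160 and AT5G60530 had the largest interactions among genes called in both tissues with opposite signs, and PER3 and PER9 are peroxidases of the Casparian strip list with interactions of opposite sign. Each runs 5′ to 3′ on the gene's own strand from 250 bases before the annotated start to 50 bases past it, read from RefSeq assembly TAIR10.1. Capitals mark matches, on either strand, to ACCNAAC, to the W-box core TTGAC of WRKY factors, or to the G-box CACGTG of bHLH and bZIP factors. ACCNAAC is called the AC pattern here. It overlaps only in part with the AC elements that MYB factors of the phenylpropanoid pathway are known to bind.
AT1G14160, chr1:4841799-4842098, minus strand: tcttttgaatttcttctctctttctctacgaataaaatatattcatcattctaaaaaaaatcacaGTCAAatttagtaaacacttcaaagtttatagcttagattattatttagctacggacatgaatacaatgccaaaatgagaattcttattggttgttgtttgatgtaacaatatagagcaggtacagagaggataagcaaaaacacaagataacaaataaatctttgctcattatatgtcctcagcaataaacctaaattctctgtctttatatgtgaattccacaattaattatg
AT5G60530, chr5:24335809-24336108, minus strand: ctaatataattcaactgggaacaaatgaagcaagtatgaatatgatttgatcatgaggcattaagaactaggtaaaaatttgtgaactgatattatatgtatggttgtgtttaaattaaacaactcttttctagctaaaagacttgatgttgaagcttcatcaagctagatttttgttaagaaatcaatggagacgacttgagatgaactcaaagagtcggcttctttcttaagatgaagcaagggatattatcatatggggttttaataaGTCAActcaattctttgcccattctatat
PER3, chr1:1529517-1529816, plus strand: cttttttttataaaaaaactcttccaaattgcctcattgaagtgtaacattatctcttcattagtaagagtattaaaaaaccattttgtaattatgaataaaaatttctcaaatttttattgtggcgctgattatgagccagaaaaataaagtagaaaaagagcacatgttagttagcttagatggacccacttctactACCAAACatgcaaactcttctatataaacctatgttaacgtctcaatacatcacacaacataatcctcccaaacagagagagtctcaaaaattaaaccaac
PER9, chr1:17001839-17002138, plus strand: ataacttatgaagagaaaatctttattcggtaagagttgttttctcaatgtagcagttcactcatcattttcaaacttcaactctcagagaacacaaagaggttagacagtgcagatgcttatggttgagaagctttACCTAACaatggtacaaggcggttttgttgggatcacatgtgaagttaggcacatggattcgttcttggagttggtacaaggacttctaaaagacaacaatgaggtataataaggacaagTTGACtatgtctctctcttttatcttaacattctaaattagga
The AC pattern stood in 18.2% of the 19536 promoters of the protein-coding genes tested, in 18.6% of those with a more positive interaction and in 16.3% of those with a more negative one. The shares for the W-box core were 51.4%, 51.3% and 55.1%, and those for the G-box were 8.70%, 10.2% and 8.65%. These are descriptions of the letters in this window.

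The libraries held between 7280556 and 24274637 counts, and the 3 mutant endodermis libraries were the smallest, at 13427477, 7874107 and 7280556. The median SD of log2 CPM over genes was 0.580 in mutant endodermis, against 0.238 in wild-type endodermis, 0.179 in wild-type whole root and 0.162 in mutant whole root. The counts of the targeted gene MYB36 were 133, 182 and 266 CPM in wild-type endodermis and 97.1, 191 and 101 CPM in mutant endodermis, so the ranges overlapped. In whole root MYB36 stood at 30.4, 34.8 and 32.6 CPM in wild type and at 19.5, 18.2 and 16.7 CPM in the mutant, without overlap. Its interaction was 0.27 ± 0.39 (adjusted p = 0.649, edgeR), and because the site of the lesion is not given these counts cannot check the genotype. Endodermal markers were higher in the wild-type sorted cells than in the wild-type roots for CASP1 (mean 1003 against 250 CPM) and SCR (296 against 62.8 CPM), while ESB1 was similar (89.6 against 99.2 CPM). The summed xylem list was low in the sorted cells, at 13.9 to 27.5 CPM against 587 to 809 CPM in wild-type root. The summed root cap list, however, was higher in the wild-type sorted cells (248 to 345 CPM) than in wild-type root (96.6 to 146 CPM).

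The mutant effect differed between the tissues at 5758 of the 20302 genes tested, 28.4%, by edgeR's quasi-likelihood test at an adjusted p under 0.05. It was more positive in endodermis for 2803 genes (13.8%) and more negative for 2955 (14.6%). An unadjusted p under 0.05 was reached by 8039 genes. The median interaction over all genes tested was -0.10, with quartiles of -0.87 and 0.74, and the median size among called genes was 1.64. At 2927 genes the 95% interval of the interaction lay within 1 log2 unit of 0. The test uses 1 estimate of spread per gene for groups whose spread differed; when each group had its own spread in limma-voom, 4429 genes were called, 4130 of them shared with the 5758.

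Most called genes had the larger mutant effect in the sorted cells. The fitted mutant effect was larger in size in endodermis than in whole root for 5630 of the 5758 genes (97.8%) and larger in whole root for 128. The interaction contains the endodermis effect, and mutant endodermis had the largest spread, so this share follows in part from the selection of called genes. It was not set against the share among all genes tested. In fits of each tissue's 6 libraries alone, the mutant effect was called for 5225 of 18318 genes in endodermis (28.5%) and 1197 of 19624 in whole root (6.1%). Of the interaction genes, 4177 had a called effect in endodermis only, 178 in whole root only, 295 in both and 1108 in neither. A gene that did not pass the low-count filter of a tissue's own fit was counted there as not called. Of the 2803 genes with a more positive interaction, 2408 (85.9%) had their lowest mean in wild-type endodermis. Of the 2955 with a more negative interaction, 2419 (81.9%) had their lowest mean in mutant endodermis and 2002 (67.7%) had their highest in wild-type endodermis. The interaction is made from these same group means, so the shares follow in part from the selection of called genes and are descriptions. Across 18754 genes the fitted effects in the tissues had a Pearson r of 0.191 and a Spearman rho of 0.126, a description over genes that share libraries and are not independent.

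**Figure D1:**
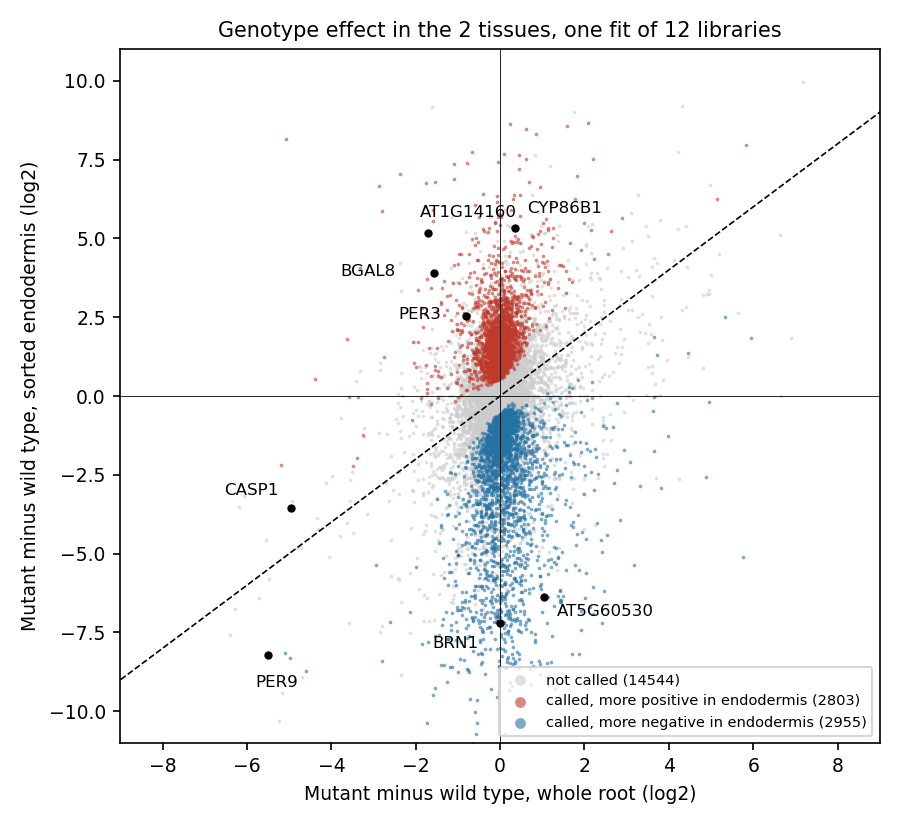
Mutant minus wild-type log2 difference in sorted endodermis (vertical axis) against whole root (horizontal axis) for the genes tested, from a single fit of all 12 libraries. Red and blue points are the 2803 and 2955 genes with a called interaction, grey points the other genes, and the dashed line marks equal effects; called genes spread along the vertical axis, and a few named genes are labelled.

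The mutant effect was called in both tissues with opposite signs for 118 genes, and all 118 had a called interaction. In 83 of them RNA was lower in mutant endodermis and higher in mutant whole root, and in 35 the reverse held. The call in each tissue and the interaction share the same libraries, so the count of 118 is a description.

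AT1G14160, a gene of the UPF0497 membrane protein family (chr1:4840562-4841848, minus strand, 3 exons), had the largest positive interaction among named genes. Its levels in wild-type endodermis were 0.483, 0.673 and 0.542 CPM, against 16.8, 20.8 and 25.5 CPM in mutant endodermis. In whole root they were 24.3, 28.6 and 28.0 CPM in wild type and 7.20, 7.72 and 9.95 CPM in the mutant. The genotypes did not overlap in either tissue, and the order of the genotypes was reversed between the tissues. The interaction was 6.89 ± 0.35 (95% interval 6.12 to 7.65, adjusted p = 4.36e-07, edgeR). An annotated gene lies on the other strand here, and no source used here says whether counting used strand.

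BGAL8, a beta-galactosidase, followed the same order. Wild-type endodermis held 11, 13.5 and 15.1 CPM and mutant endodermis 219, 157 and 218 CPM. Wild-type root held 204, 326 and 248 CPM and mutant root 80.6, 96.6 and 83.5 CPM. The interaction was 5.48 ± 0.28 (adjusted p = 5.67e-07, edgeR), and BGAL8 also overlaps a gene on the other strand. The cytochrome P450 gene AT5G08250 rose in endodermis from a mean of 0.446 to 10.3 CPM and fell in root from 10.05 to 5.09 CPM, with an interaction of 5.48 ± 0.56 (adjusted p = 4.35e-05, edgeR).

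AT5G60530, a late embryogenesis abundant protein-related gene (chr5:24333907-24335858, minus strand, 2 exons), had the largest negative interaction. Wild-type endodermis held 364, 483 and 478 CPM, and mutant endodermis 9.36, 4.78 and 1.02 CPM. In whole root the wild type held 35.5, 37.3 and 25.5 CPM and the mutant 81.6, 46.5 and 73.8 CPM. RNA of this gene was thus lower in the mutant among sorted cells and higher in the mutant among roots, without overlap in either tissue. The interaction was -7.42 ± 0.61 (95% interval -8.75 to -6.09, adjusted p = 1.71e-05, edgeR). ALDH3F1, an aldehyde dehydrogenase, fell in endodermis from 38.6, 66.0 and 48.8 CPM to 1.24, 1.51 and 0 CPM and rose in root from a mean of 6.50 to 12.6 CPM, an interaction of -6.67 ± 0.67 (adjusted p = 3.77e-05, edgeR). PASPA3, an aspartyl protease known from dying root cap cells, fell in endodermis from 72.4, 74.9 and 94.8 CPM to 2.91, 1.01 and 0.290 CPM. Its root levels rose from 24.7, 50.3 and 44.3 CPM to 68.8, 82.4 and 80.3 CPM, and its interaction was -6.66 ± 0.59 (adjusted p = 1.75e-05, edgeR).

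Other genes with very large interactions changed mostly in endodermis. The kelch-repeat gene AT3G07720 went from 2.68, 2.29 and 2.41 CPM to 183, 161 and 275 CPM in endodermis, with 45.0 to 57.5 CPM in wild-type and 53.2 to 72.7 CPM in mutant root, an interaction of 6.07 ± 0.30. The peroxidase AT3G21770 went from 8.37, 5.52 and 12.8 CPM to 699, 627 and 887 CPM in endodermis and from 148, 158 and 176 CPM to 198, 236 and 235 CPM in root, an interaction of 5.91 ± 0.34. Both changed in endodermis far beyond the spread of their libraries. AT1G68880, basic leucine-zipper 8, had an interaction of 5.60 ± 0.66 and AT2G36220 of 4.07 ± 0.42. MYB49, higher in mutant endodermis and lower in mutant root, had one of 4.37 ± 0.40. On the negative side, the P450 gene AT1G73340 fell from 50.9, 64.8 and 54.0 CPM to 0.0883, 1.26 and 0 CPM in endodermis, an interaction of -7.21 ± 0.77. AT3G03500, a TatD-related DNase, had an interaction of -7.26 ± 0.66. AT5G10130, of a pollen allergen and extensin family, was lower in mutant endodermis and higher in mutant root (-6.38 ± 0.32). The beta-glucosidase genes BGLU34 (-6.88 ± 0.52) and BGLU35 (-7.28 ± 0.66) and the disease resistance gene AT5G41740 (5.69 ± 0.82) share exon sequence with other loci, over 25%, 23.3% and 13.3% of their 50-base windows, so their counts are uncertain.

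**Figure D2:**
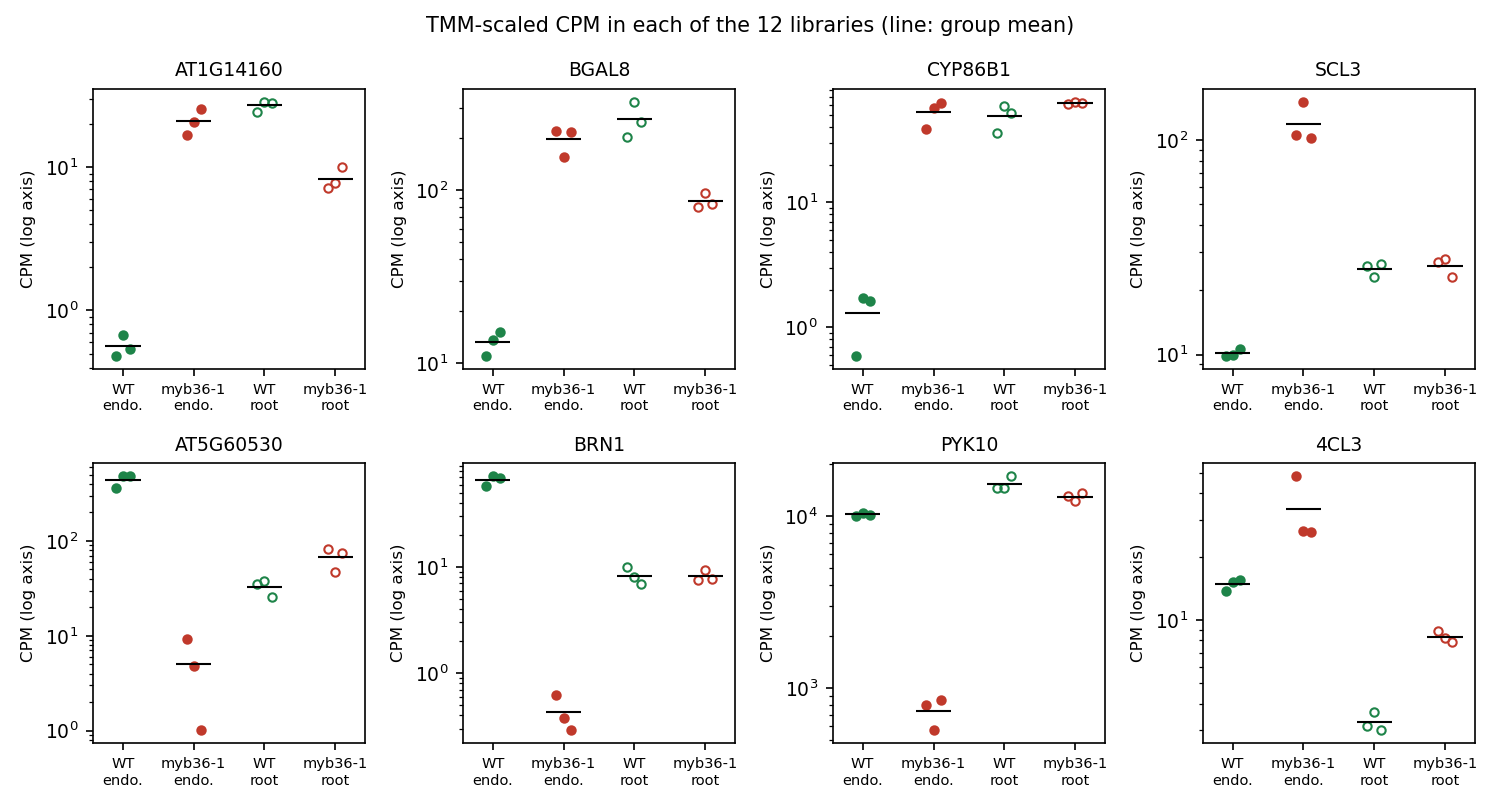
CPM in each of the 12 libraries on a log axis for 8 genes, with filled points for sorted endodermis, open points for whole root, green for wild type (WT), red for myb36-1 and a line at each group mean. The top row shows genes whose interaction was positive, the bottom row AT5G60530, BRN1 and PYK10 with negative interactions and 4CL3, which rose in both tissues.

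Most Casparian strip genes fell, yet 11 of the 25 tested had a more positive interaction and 2 a more negative one, against 13.8% and 14.6% of all genes, and the list's median was 0.46. In single-tissue fits 13 were lower and 4 higher in mutant endodermis, where 12.9% and 15.6% of all genes were called, and 18 were lower and none higher in mutant root, against 2.85% and 3.25%. CASP1, a scaffold protein of the strip, fell from 640, 1326 and 1044 CPM to 89.3, 53.3 and 114 CPM in endodermis. In whole root CASP1 fell from 213, 294 and 241 CPM to 9.11, 6.97 and 8.13 CPM. Both falls lay outside the range of the libraries, and the fall in root was the larger, with an interaction of 1.40 ± 0.41 (adjusted p = 0.0237, edgeR). ESB1, a dirigent-domain protein of the strip, fell from a mean of 89.6 to 37.8 CPM in endodermis and from 99.2 to 10.4 CPM in root, an interaction of 2.02 ± 0.30. CASP4 (1.44 ± 0.39), the peroxidase PER64 (1.27 ± 0.39) and the kinase SGN1 (1.34 ± 0.24) likewise fell in both tissues and further in root.

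For other strip genes no difference between the tissues was called although each fell in both. The interaction was -0.46 ± 0.64 for CASP2, 0.01 ± 0.52 for CASP5, -0.69 ± 0.54 for DIR9, -0.33 ± 0.35 for DIR18 and 0.46 ± 0.31 for DIR24. A missed call does not show that the tissues were alike: the 95% interval for CASP2 ran from -1.85 to 0.93. DIR18, a dirigent protein, illustrates the size of these falls: it went from 526, 681 and 848 CPM to 14.7, 8.05 and 14.2 CPM in endodermis and from 254, 324 and 315 CPM to 8.04, 5.41 and 6.71 CPM in root. PER9 fell further in endodermis: it went from 462, 640 and 652 CPM to 2.38, 2.01 and 1.31 CPM there and from 68.9, 111 and 68.2 CPM to 3.11, 0.894 and 1.42 CPM in root. Its interaction was -2.72 ± 0.55 (adjusted p = 0.00294, edgeR), which was not called with a spread per group (adjusted p = 0.158, limma-voom).

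A further set of genes in this list rose in mutant endodermis. PER3, a peroxidase, rose from 257, 212 and 321 CPM to 1797, 1202 and 1586 CPM in endodermis and fell from 134, 145 and 153 CPM to 79.5, 80.6 and 86.8 CPM in root. Both changes were called, and the interaction was 3.34 ± 0.26 (adjusted p = 9.75e-06, edgeR). GSO1, the receptor kinase that senses gaps in the strip, rose from a mean of 78.1 to 414 CPM in endodermis and stood at 85.3 and 85.5 CPM in wild-type and mutant root, an interaction of 2.40 ± 0.34. RBOHF, an NADPH oxidase of strip lignification, rose from a mean of 252 to 726 CPM in endodermis and stood at 132 and 118 CPM in root, an interaction of 1.70 ± 0.43, and PER39 had an interaction of 1.48 ± 0.32. UCC1 (1.84 ± 0.32), an uclacyanin, and PER72 (1.55 ± 0.21) fell in root, and their changes in endodermis were not called. The second gene with a more negative interaction, CIF2, was near 0 in every sorted library (group means 0.649 and 0.0589 CPM). The number of more negative genes in this list was 1 without wild-type endodermis replicate 1, without mutant endodermis replicate 2 or without mutant endodermis replicate 3.

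**Figure D3:**
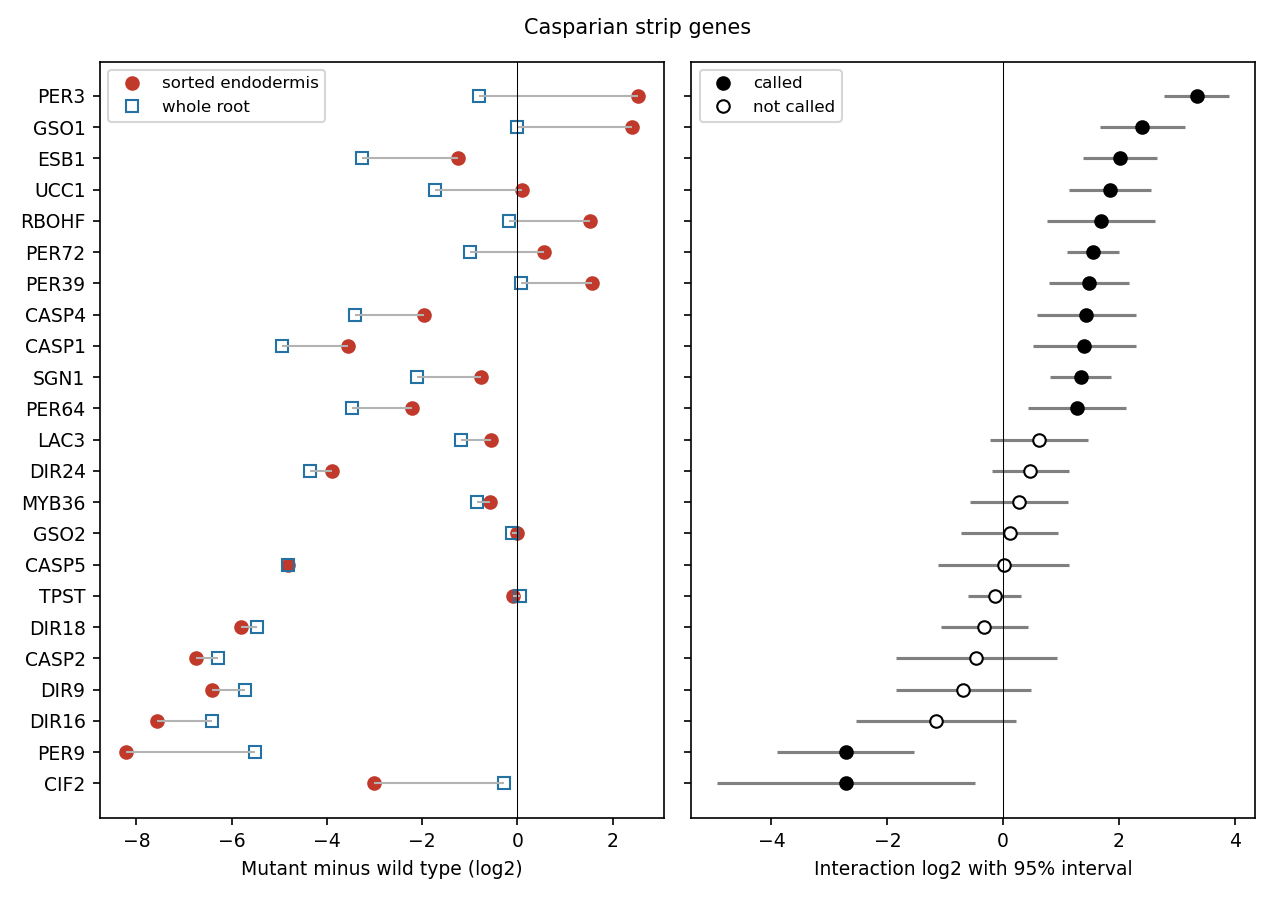
Mutant minus wild-type log2 difference in endodermis (filled circles) and whole root (open squares) from the 12-library fit on the left, and the interaction with its 95% interval on the right, for 23 Casparian strip genes with a standard error. Filled points on the right are called at an adjusted p under 0.05. PER3, GSO1, RBOHF, PER39, PER72 and UCC1 lie to the right of 0 in endodermis, and CASP5 has nearly the same value in both tissues.

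Most suberin genes rose in mutant endodermis, and most were not called in mutant root. Of 23 tested, 17 had a more positive interaction and 2 a more negative one, against 13.8% and 14.6% of all genes. The list's median was 2.48. In endodermis 17 were higher and none lower, where 15.6% and 12.9% of all genes were called. In root 4 were higher and 1 lower, where 3.25% and 2.85% of all genes were called. CYP86B1, which hydroxylates very long chain fatty acids for suberin, rose from 0.590, 1.70 and 1.63 CPM to 38.7, 56.7 and 62.8 CPM in endodermis. In root it stood at 36.0, 59.2 and 52.1 CPM in wild type and 60.9, 64.0 and 62.8 CPM in the mutant, so the endodermis samples separated widely and the root samples only slightly. Its interaction was 4.97 ± 0.43 (adjusted p = 1.67e-05, edgeR). MYB41, a transcription factor that turns on suberin synthesis, rose from 1.29, 1.79 and 0.843 CPM to 46.3, 19.5 and 36.0 CPM in endodermis, with 1.63 to 2.88 CPM in wild-type and 3.78 to 4.32 CPM in mutant root, an interaction of 3.80 ± 0.51. The acyltransferase GPAT5 (4.55 ± 0.88), the transporters ABCG6 (3.57 ± 0.61) and ABCG20 (3.01 ± 0.55), the fatty acyl reductase FAR5 (3.47 ± 0.42), the elongase KCS2 (2.86 ± 0.28) and the factors MYB107 (3.20 ± 0.38) and MYB39 (3.11 ± 0.47) were also more positive.

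The 2 suberin genes with a more negative interaction, ABCG1 and FAR1, rose in root. ABCG1, a transporter, stood at 51.8, 45.6 and 75.9 CPM in wild-type and 96.8, 29.9 and 31.8 CPM in mutant endodermis, which overlapped, and rose from 4.31, 3.18 and 3.97 CPM to 15.8, 15.2 and 16.5 CPM in root. Its interaction was -2.17 ± 0.54 (adjusted p = 0.0107, edgeR). FAR1 rose in root from 3.37, 1.92 and 3.79 CPM to 13.5, 15.9 and 13.4 CPM and had almost no counts in sorted cells. MYB92 fell in root from a mean of 27.0 to 9.72 CPM, with 23.1 and 40.5 CPM in wild-type and mutant endodermis, an interaction of 2.28 ± 0.35. The number of more negative genes in this list was 1 without wild-type endodermis replicate 2.

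Genes of the phenylpropanoid pathway, which supplies lignin and the phenolics of suberin, were more positive at 7 of 17 tested and more negative at none. The shares of all genes were 13.8% and 14.6%, and the list's median was 0.82. PAL1, the entry enzyme, rose from 106, 111 and 209 CPM to 2019, 1772 and 2024 CPM in endodermis, with 613 to 786 CPM in wild-type and 742 to 848 CPM in mutant root. The endodermis samples did not overlap and the root samples did. The interaction of PAL1 was 3.59 ± 0.33 (adjusted p = 2.18e-05, edgeR). CAD4, the last enzyme of monolignol synthesis, rose from a mean of 113 to 893 CPM in endodermis and stood at 336 and 302 CPM in root, an interaction of 3.14 ± 0.26. PAL4 (2.82 ± 0.29), CYP98A3 (2.24 ± 0.32), C4H (1.33 ± 0.22), HCT (1.21 ± 0.21) and CAD5 (1.59 ± 0.48) completed the 7. The interaction of CCoAOMT1 was 0.03 ± 0.26 and that of CSE -0.52 ± 0.26, neither called. Without wild-type endodermis replicate 1, 1 gene of this list was more negative.

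Genes that pattern the ground tissue, from which cortex and endodermis derive, were more positive at 6 of 9 and more negative at none. Among all genes 13.8% were more positive and 14.6% more negative, and the list's median was 1.30. SCL3, a GRAS protein of gibberellin signalling, rose from 9.87, 10 and 10.6 CPM to 105, 150 and 101 CPM in endodermis and stood at 22.9 to 26.5 CPM in wild-type and 23.0 to 27.8 CPM in mutant root. Its interaction was 3.50 ± 0.25 (adjusted p = 4.56e-06, edgeR). SCR, a factor required for the division that forms endodermis, rose from 231, 335 and 324 CPM to 692, 1006 and 823 CPM in endodermis, with 57.8 to 72.8 CPM in wild-type and 50.4 to 53.9 CPM in mutant root, an interaction of 1.77 ± 0.26. JKD (1.24 ± 0.26), MGP (1.41 ± 0.33), SCL23 (1.30 ± 0.42) and BIB (1.61 ± 0.51) were also called, and SHR, made in the stele, was not (0.06 ± 0.19). Both cortex markers tested, of 3 listed, were more positive: CYP71B34 by 3.19 ± 0.52 and AED3 by 4.03 ± 0.89. Summed cortex markers were 1.72 to 2.02 CPM in wild-type and 18.1 to 22.3 CPM in mutant endodermis, against 19.3 to 25.7 and 18.6 to 28.9 CPM in the roots. None of these markers was at 0 in a whole group, and their part in the results above was not tested.

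Markers of the outermost cells went the other way. Of 7 root cap genes 6 were more negative and none more positive, against 14.6% and 13.8% of all genes, with a median of -6.22. BRN1, a NAC factor of root cap maturation, fell from 58.6, 72.3 and 69.5 CPM to 0.618, 0.377 and 0.290 CPM in endodermis, with 9.91, 8.03 and 6.93 CPM in wild-type and 7.57, 9.41 and 7.73 CPM in mutant root. Every mutant sorted library lay below every wild-type one, while the roots overlapped, and the interaction was -7.18 ± 0.40 (adjusted p = 4.36e-07, edgeR). The related factor SMB (-6.35 ± 0.77), the nuclease BFN1 (-6.22 ± 0.86), PASPA3, the cellulase CEL5 (-3.08 ± 0.59) and BRN2 (-2.93 ± 0.65) were called as well, and FEZ was not (-0.20 ± 1.13). The summed root cap list held 248 to 345 CPM in wild-type and 5.79 to 30.6 CPM in mutant endodermis, while the roots held 96.6 to 146 and 136 to 171 CPM, and no listed gene was at 0 in a whole group.

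Of 13 root hair and epidermis genes 11 were more negative and none more positive, against 14.6% and 13.8% of all genes. The list's median was -2.81. With a spread per group in limma-voom, 6 of the 13 were called. WER, which specifies hairless epidermis, fell from 55.3, 75.1 and 48.4 CPM to 0.0883, 3.14 and 0.145 CPM in endodermis and stood at 11.7 to 13.0 and 11.2 to 12.0 CPM in the roots, an interaction of -5.71 ± 0.84. GL2, downstream of WER, fell from 58.6, 62.9 and 48.9 CPM to 5.91, 8.80 and 9.72 CPM in endodermis and stood at 15 to 21.9 and 19.4 to 21.7 CPM in the roots, an interaction of -2.98 ± 0.30. The root hair expansin EXPA18 had an interaction of -4.61 ± 0.62. The list summed to 351 to 438 CPM in wild-type and 80.4 to 92.9 CPM in mutant endodermis, and to 260 to 484 and 444 to 544 CPM in the roots, again with no gene at 0 in a whole group. The part of these outer-cell markers in the other negative interactions was not tested.

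Few vascular markers were called. None of 7 phloem genes was called by edgeR. DESeq2 called 2 of them more positive, edgeR without mutant endodermis replicate 2 called 2 in each direction, 1 was more positive without replicate 1 of either genotype's endodermis, and 1 was more negative without mutant endodermis replicate 3. Of 11 xylem genes none was more positive and 2 (18.2%) were more negative, against 13.8% and 14.6% of all genes. The 2 were LAC4 and IRX9, both at low counts in sorted cells, with IRX9 at 0 in all mutant endodermis libraries. The xylem list gave 1 more negative gene without wild-type endodermis replicate 1 or 3, mutant endodermis replicate 2, wild-type root replicate 1 or 3, or mutant root replicate 2 or 3, and 1 more positive gene without mutant endodermis replicate 2 or 3, wild-type root replicate 1 or mutant root replicate 2. Of 9 stele and pericycle genes PHB, a homeodomain factor of inner tissues, was more positive (2.21 ± 0.53), at 14.4, 11 and 9.03 CPM in wild-type and 19.2, 39.6 and 83.3 CPM in mutant endodermis, and none was more negative. Leaving out mutant endodermis replicate 1 gave 3 more positive stele genes and 2 more negative.

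**Figure D4:**
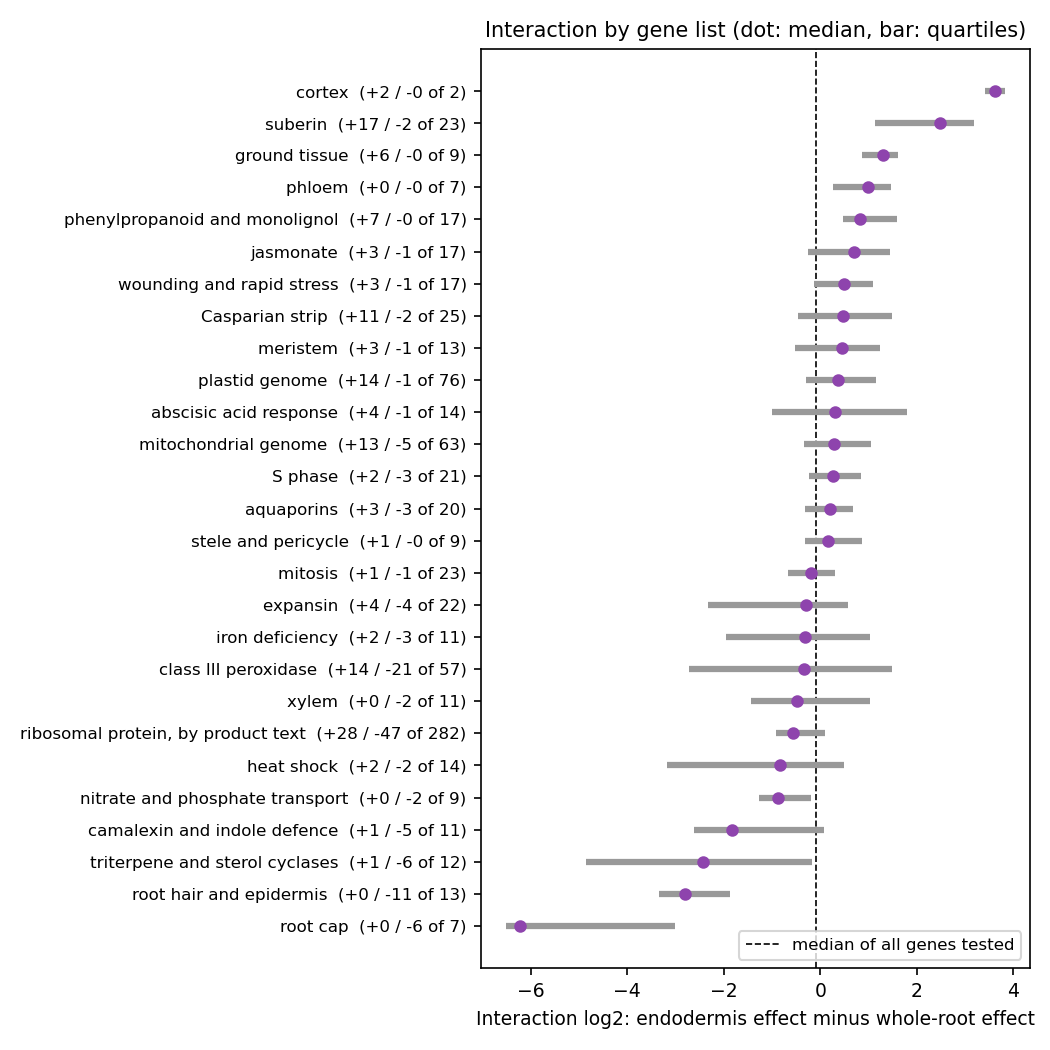
Median interaction (dot) and quartiles (bar) of each gene list, with the number of members called more positive (+) and more negative (-) of those tested beside its name. The dashed line is the median of all genes tested, -0.10; the suberin, cortex and ground tissue lists lie to its right and the root cap, root hair and triterpene lists to its left.

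The share of S phase genes called was near that of all genes: of 21, 2 were more positive (9.52%) and 3 more negative (14.3%), against 13.8% and 14.6% of all genes, with a median of 0.26, among them CYCD3;1, a G1 cyclin, at -2.03 ± 0.44 and the histone gene H4 at 1.60 ± 0.42, which repeats 30.8% of its exon windows elsewhere. Of 23 mitosis genes KNOLLE, the syntaxin of cytokinesis, was more positive (2.19 ± 0.40) and CYCA2;3 more negative (-0.86 ± 0.27), 4.35% in each direction. Leaving out mutant endodermis replicate 1 gave 9 S phase and 4 mitosis genes more positive, and 1 S phase gene was more positive without wild-type endodermis replicate 3, wild-type root replicate 1, or mutant root replicate 2 or 3. The mitosis list had 2 more positive and 6 more negative genes without mutant endodermis replicate 2, and 2 more negative without mutant endodermis replicate 3 or mutant root replicate 1. The call of CYCA2;3 was absent without replicate 2 or 3 of wild-type endodermis, wild-type root or mutant root. Of 13 meristem genes 3 were more positive (23.1%) and 1 more negative (7.69%). WOX5, a factor of the quiescent centre, went from 0.215, 0.583 and 0.361 CPM to 4.59, 12.5 and 9.72 CPM in endodermis, with 1.94 to 2.44 and 1.91 to 2.49 CPM in the roots, an interaction of 4.53 ± 0.65. BBM (1.94 ± 0.54) and GIF1 (1.47 ± 0.28), which promote meristem growth, were the others. UPB1, a factor that limits the meristem, fell in endodermis from a mean of 168 to 26.7 CPM, an interaction of -2.47 ± 0.30. More positive meristem genes numbered 6 without mutant endodermis replicate 1, and more negative ones 3 without mutant endodermis replicate 2 and 2 without wild-type endodermis replicate 3.

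In the stress and hormone lists between 14.3% and 28.6% of genes were more positive and between 5.88% and 14.3% more negative, against 13.8% and 14.6% of all genes. The wounding and rapid stress list summed to 1606 to 2124 CPM in wild-type and 2469 to 7207 CPM in mutant endodermis, against 165 to 178 and 245 to 269 CPM in the roots. Of its 17 genes 3 were more positive, CML37 (4.37 ± 0.89), FRK1 (3.09 ± 0.66) and ZAT12 (2.34 ± 0.41), and WRKY53 was more negative (-1.45 ± 0.50). CML37, a calmodulin-like protein, stood at 7.99, 7.13 and 11.9 CPM in wild-type and 288, 82.0 and 160 CPM in mutant endodermis and below 1 CPM in the roots. The call of CML37 was absent in limma-voom and when all libraries were thinned to equal depth. FRK1, a receptor kinase of flagellin signalling, rose in both tissues. Leaving out mutant endodermis replicate 2 gave 6 more positive genes, leaving out replicate 1 gave 2 more negative, and the call of WRKY53 was absent without any 1 library of wild type or of mutant root. Of 14 heat shock genes 2 were more positive (HSP70-4 and DREB2A) and 2 more negative (HSP17.6A at -3.87 ± 0.96 and HSC70-1 at -1.18 ± 0.29). HSP70-4 stood at 2315, 692 and 585 CPM in mutant endodermis, and its interaction of 1.91 ± 0.61 was not called without wild-type endodermis replicate 2 or 3, wild-type root replicate 1 or 2, or mutant root replicate 1 or 3, which left 1 more positive gene. More negative heat shock genes numbered 4 without mutant endodermis replicate 1. The part of the stress response in other interactions was not tested.

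Of 14 abscisic acid response genes 4 were more positive: COR47, a dehydrin (2.30 ± 0.44), and PP2CA (1.96 ± 0.29), ABI1 (1.62 ± 0.42) and ABI2 (1.85 ± 0.55), phosphatases that hold back the hormone's signalling. RD29B was more negative, with no counts in mutant endodermis. The more negative genes numbered 4 without mutant endodermis replicate 1 and 2 without wild-type endodermis replicate 3. Of 17 jasmonate genes 3 were more positive, JAZ6, a repressor (2.77 ± 0.57), AOS, a synthesis enzyme (2.27 ± 0.68), and MYC2, the master transcription factor (2.26 ± 0.35), and JAZ3 was more negative (-1.24 ± 0.38). AOS was spread from 153 to 890 CPM in mutant endodermis, and its call was absent without wild-type endodermis replicate 2 or 3, wild-type root replicate 2 or any mutant root library. Jasmonate genes with a more negative interaction numbered 4 without mutant endodermis replicate 1, and none without wild-type endodermis or wild-type root replicate 1 or 3, mutant endodermis replicate 2 or 3, or any mutant root library.

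Of 12 triterpene and sterol cyclase genes 6 were more negative and 1 more positive, against 14.6% and 13.8% of all genes, with a median of -2.43, and 3 were more negative with a spread per group. THAD, of the thalianol cluster, fell from 568, 415 and 498 CPM to 30.2, 35.3 and 17.8 CPM in endodermis and ranged from 594 to 1681 and 804 to 1097 CPM in the roots, an interaction of -3.79 ± 0.47. The marneral synthase MRN1 had an interaction of -4.44 ± 0.86, which was not called with a spread per group (adjusted p = 0.239, limma-voom). LAS1 and LUP1 had no counts in mutant endodermis. The camalexin and indole defence list also holds genes of ER bodies. Of its 11 genes tested 5 were more negative and 1 more positive, with a median of -1.83, and 2 were more positive without wild-type root replicate 1. The 5 were PYK10, NAI1, NAI2, JAL34 and CYP81F2. PYK10, the main beta-glucosidase of ER bodies, fell from 10057, 10451 and 10198 CPM to 794, 571 and 853 CPM in endodermis and held 14529, 14516 and 17144 CPM in wild-type and 13145, 12233 and 13583 CPM in mutant root. Its interaction was -3.55 ± 0.26 (adjusted p = 8.57e-06, edgeR). NAI1, the factor that controls ER bodies, moved alike, from a mean of 61.0 to 6.01 CPM in endodermis, an interaction of -3.15 ± 0.25, and NAI2 (-1.83 ± 0.26) and the lectin JAL34 (-1.87 ± 0.49) were also called. CYP81F2 differed from these: it rose in root from a mean of 1.59 to 20.9 CPM, an interaction of -2.41 ± 0.68.

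Of 11 iron deficiency genes 2 were more positive (18.2%) and 3 more negative (27.3%), against 13.8% and 14.6% of all genes. FRO2, the root ferric reductase, fell from 10.5, 13.0 and 12.8 CPM to 1.32, 0 and 0.435 CPM in endodermis, an interaction of -4.28 ± 0.70, and its regulator FIT fell (-1.85 ± 0.39), as did the exporter ABCG37 (-2.06 ± 0.38). F6H1, a coumarin synthesis enzyme, rose in both tissues and more in endodermis (2.47 ± 0.34). Of 20 aquaporin genes 3 were more positive, including TIP2;3 (1.86 ± 0.32), and 3 more negative, including TIP4;1 (-2.85 ± 0.42), 15% in each direction and so near the share of all genes. In mutant root 6 aquaporins were lower, against 2.85% of all genes. Of 9 nitrate and phosphate transport genes none was more positive and 2 (22.2%) were more negative, NRT1.1 (-1.16 ± 0.28) and PHT1;1 (-2.62 ± 0.37), the latter repeating 42.5% of its exon windows elsewhere. With a spread per group NRT1.1 was not called (adjusted p = 0.193, limma-voom), while 3 genes of the list were more negative.

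Families and organelle genomes taken whole are set against 13.8% more positive and 14.6% more negative among all genes. Of 57 class III peroxidase genes 14 were more positive (24.6%) and 21 more negative (36.8%), with a median of -0.34. AT5G24070 fell from 120, 99.7 and 143 CPM to 0.265, 1.01 and 2.03 CPM in endodermis and stood at 6.49 to 12.0 and 9.86 to 10.5 CPM in the roots, an interaction of -7.14 ± 0.57, opposite to AT3G21770 above. Of 22 expansin genes 4 were more positive and 4 more negative (18.2% each, near the share of all genes), the latter led by EXPA18 and EXPA14 (-4.45 ± 0.20), and 9 were more negative without mutant endodermis replicate 3. Of 282 genes with ribosomal protein in their product text 28 were more positive (9.93%) and 47 more negative (16.7%), near the share of all genes, with a median of -0.56. The more positive numbered 44 without mutant endodermis replicate 1. The more negative numbered 122 without mutant endodermis replicate 2, 20 without wild-type endodermis replicate 2, 21 and 19 without wild-type root replicates 2 and 3, and 31 and 25 without mutant root replicates 1 and 3. Of 63 mitochondrial genome genes 13 were more positive (20.6%) and 5 more negative (7.94%), and of 76 plastid genome genes 14 (18.4%) and 1 (1.32%), or 22 more positive plastid genes without mutant endodermis replicate 1 and 4 or 2 more negative ones without mutant endodermis replicate 2 or 3. More negative mitochondrial genes numbered 3 without wild-type endodermis replicate 1 or 3, wild-type root replicate 2 or 3, or any mutant root library. Mitochondrial genes took 2.84% to 4.29% of counts in wild-type endodermis and 3.75%, 3.92% and 7.46% in the mutant endodermis libraries, against 1.15% to 1.5% in the roots.

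Some genes changed alike in both tissues. Of the 164 genes higher in the mutant in both single-tissue fits 80 had a called interaction, and of the 160 lower in both 97 did. Among all genes tested 28.4% had one. The interval of the interaction lay within 1 log2 unit of 0 for 12 of the 164 and 6 of the 160, against 2927 of all 20302 genes tested. 4CL3, a coumarate CoA ligase, rose from 13.7, 15.2 and 15.5 CPM to 48.5, 26.4 and 26.1 CPM in endodermis and from 3.13, 3.66 and 3.00 CPM to 8.88, 8.24 and 7.91 CPM in root. It rose in every mutant library, and its interaction was -0.16 ± 0.35 (95% interval -0.93 to 0.60). PROPEP3, a precursor of an elicitor peptide, held 32.3 to 42.7 CPM in wild-type and 104 to 117 CPM in mutant endodermis, and 4.18 to 7.02 and 12.8 to 14.2 CPM in the roots, an interaction of 0.36 ± 0.27. The transporter ABCC6 had an interaction of -0.13 ± 0.37. AT5G42420, a nucleotide-sugar transporter family gene, fell in both tissues. Its range was 55.2 to 62.1 CPM in wild-type and 22.7 to 27.1 CPM in mutant endodermis, and 84.0 to 91.7 and 42.1 to 49.8 CPM in the roots, an interaction of -0.28 ± 0.20. AT5G21940 (-0.31 ± 0.26) and the aquaporin PIP2;7 (-0.32 ± 0.28) also fell in both.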

How the data were processed

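RNA of 12 libraries was sequenced from strand-specific libraries, per the labels' protocols. The authors deposited raw read counts per locus without normalization, and these counts were used; per the submitters' processing notes the tools included TopHat2 and HTSeq and the build was TAIR10. No source used here says whether counting used strand. Genes overlapping on opposite strands, such as AT1G14160, BGAL8, PASPA3, CASP1, ESB1, GSO1 and PYK10, cannot be told apart unless it did.

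Counts were fitted in edgeR 4.0.16 under R 4.3.3 (filterByExpr, TMM factors, quasi-likelihood F-test, Benjamini-Hochberg over the 20302 genes tested) as 4 group means, with the contrast of mutant effects between tissues; genes were called at an adjusted p under 0.05. Standard errors are Wald errors on the quasi-likelihood scale. Effects within a tissue came from fits of its 6 libraries. limma 3.58.1 and DESeq2 1.42.0 served as alternatives. In simulated counts for the 20302 genes, 50 genes were changed at each fold size. The changed genes were drawn only from those above a minimum mean CPM and were changed in mutant endodermis alone. The interaction test recovered 6% of these at 2-fold, 70% at 4-fold and 98% at 8-fold. Recovery was not measured for genes at low counts or for groups of unequal spread. These shares therefore need not hold for low-count genes or for the real groups, of which mutant endodermis had the largest spread. Loci were matched by ID to RefSeq TAIR10.1 (32835 of 33602) for names, positions and promoters.

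Named genes were MYB36, the genes with the largest interactions among all genes, at 5 CPM or more in every group, and among opposite effects, the leading called members of each list, and genes alike in both tissues; eligible genes had 10 or more counts per group. Other list members were chosen after their values were seen. Members and lists were chosen with earlier results of these data known. The deposited normalized counts and comparisons were not used. One member of the Casparian strip list is counted in its totals but not reported here by itself.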

Additional observations from a re-analysis of the deposited data

Results flagged for a closer look

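The mutant effect differed between sorted endodermis and whole root, by edgeR's test of the difference itself, for 5758 genes. Among genes whose effect was called in both tissues with opposite signs, the 3 with the largest difference in each direction stood out. More positive in endodermis were AT1G14160 (6.89), BGAL8 (5.48) and AT5G08250 (5.48, log2). More negative in endodermis were AT5G60530 (-7.42), ALDH3F1 (-6.67) and PASPA3 (-6.66, log2). With 3 libraries a group, no test for outlying libraries was run.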

How the results depend on the processing

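The number of genes called for the interaction was 5758 and ranged from 4429 (limma-voom, spread per group) to 7042 (DESeq2) over the alternatives that kept all libraries, and from 4299 to 7880 when 1 library was left out, with 2087 to 3507 more positive, 2180 to 4373 more negative and a median of -0.18 to -0.08. Among genes called both here and under an alternative, none had the opposite sign. The same sign was called in every setting for 3246 genes. Deviations of same-numbered libraries correlated between -0.15 and 0.24, and those of libraries with unlike numbers between -0.27 and 0.15. These ranges overlap, so they do not settle whether the replicate numbers pair the samples. With the replicate block 5072 genes were called for the interaction, 4684 in endodermis and 1512 in whole root, and with the replicate block within tissue 4900. The effects within a tissue depended on the fit: with all 12 libraries sharing 1 spread per gene, 9251 genes were called in endodermis and 142 in whole root, against 5225 and 1197. Of 63 named genes called, 55 were called in all 24 alternatives. The sign of 3 uncalled genes turned when 1 library was left out, the cause of which was not tested: MYB36 ranged from -0.11 to 0.56, 4CL3 from -0.55 to 0.0074 and ABCC6 from -0.33 to 0.13. Depth limits the mutant endodermis most: at 7280556 counts, 3 counts correspond to 0.412 CPM.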
